A study of Mus musculus with 6 samples.

Results

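The genes described here are the mouse zinc finger genes whose symbols consist of Zfp and a number. Of 31053 gene rows in the matrices, 367 had such a symbol, and the 200 with the most unique molecular identifiers (UMIs) summed over all barcodes of the 6 libraries were taken as members. Within the family the members were thus chosen by total UMI count, so their levels are description. No drug contrast enters that rule, but the family was picked with earlier results of these data known. The members held 1471664 UMIs, 0.688% of all UMIs and 94.8% of the UMIs of the 367 symbols, with a median of 4176 UMIs per member. The members just inside the limit were Zfp90 with 1547 UMIs, Zfp57 with 1529 and Zfp335 with 1527. The symbols just outside it were Zfp84 with 1494, Zfp120 with 1482 and Zfp12 with 1472.

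Each library held nuclei from the hippocampus (tissue label hippocampus, DG) of 5 pooled male C57BL/6J mice, 12 weeks old, so a library is the replicate and differences among mice within a pool are not seen. Mice were injected intraperitoneally with vehicle (Veh) or with 30 mg/kg of CI-994, an inhibitor of class I histone deacetylases (HDACi), with 1 h between injection and exposure and a further 1 h until tissue was taken. The 2 Veh-CFC and 2 HDACi-CFC libraries come from contextual fear conditioning (CFC), in which the chamber visit included 2 foot shocks of 0.2 mA. The single Veh-Context and the single HDACi-Context library come from mice that visited the chamber without shock. Nuclei of all groups were isolated in the presence of actinomycin D, a transcription inhibitor. One label of the Veh-Context library, its description, says HDACi, while its title and treatment say vehicle. It is treated here as vehicle, by title, and every Context value rests on that label.

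Most Zfp proteins bind DNA through tandem zinc fingers of the C2H2 kind, in which a short stretch of the chain is folded around a zinc ion. A large subgroup also carries a KRAB domain at the amino end. KRAB zinc finger proteins tether the scaffold protein TRIM28, which recruits the histone methyltransferase SETDB1, heterochromatin proteins and deacetylase complexes, and they are best known for silencing transposable elements. Their genes lie in tandem arrays that grew by duplication.

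All 200 members had an entry and a translated coding sequence in GENCODE M21 (GRCm38, the assembly also called mm10). A C2H2 pattern was found in 196 of them, with a median of 10 and a maximum of 36 per protein, while Zfp365, Zfp972, Zfp839 and Zfp330 had none. A KRAB-like pattern in the first 300 residues was found in 97 members, and 103 lacked it. The 200 genes were spread over the genome with 45 on chromosome 7 and 25 on chromosome 17, and 72 lay in 13 runs of at least 3 members with gaps of at most 500 kb. Of those 72, 57 had the KRAB-like match. Gene bodies had a median span of 21.9 kb. Members with near-identical copies, and the 36 that overlap another gene on the same strand, have uncertain counts, because reads may have been split or dropped between copies.

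Promoter sequences are shown for 4 of the members named below: Zfp536 and Zfp941, which rose in DG granule-like nuclei, and Zfp560 and Zfp846, which lie in one run on chromosome 9 and both fell. The windows run from 250 bases before to 50 bases after the RefSeq start (GRCm38.p6) and are written 5′ to 3′ along the gene. Zfp536 lies at chr7:37769703-37770002, minus strand, and Zfp941 at chr7:140822129-140822428, minus strand. Zfp560 lies at chr9:20385109-20385408, minus strand, and Zfp846 at chr9:20581078-20581377, plus strand. Capitals mark matches, on either strand, to GGGCGG (the GC box), CGGAAG (the core of ETS factor sites, contained in the longer CCGGAAG), TGACGTCA (the cyclic AMP response element), the YY1 motif and TATAAA (the TATA box).
Zfp536: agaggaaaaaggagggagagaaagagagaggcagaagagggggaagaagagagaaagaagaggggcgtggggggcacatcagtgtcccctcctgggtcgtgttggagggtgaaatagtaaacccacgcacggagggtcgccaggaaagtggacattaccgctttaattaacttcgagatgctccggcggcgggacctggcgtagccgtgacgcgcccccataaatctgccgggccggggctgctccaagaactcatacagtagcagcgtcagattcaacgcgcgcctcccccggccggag
Zfp941: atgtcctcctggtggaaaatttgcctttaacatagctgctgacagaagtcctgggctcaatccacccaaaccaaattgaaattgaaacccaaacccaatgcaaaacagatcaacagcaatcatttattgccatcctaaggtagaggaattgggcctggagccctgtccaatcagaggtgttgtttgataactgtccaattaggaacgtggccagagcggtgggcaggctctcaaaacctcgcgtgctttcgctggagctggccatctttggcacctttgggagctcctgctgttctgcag
Zfp560: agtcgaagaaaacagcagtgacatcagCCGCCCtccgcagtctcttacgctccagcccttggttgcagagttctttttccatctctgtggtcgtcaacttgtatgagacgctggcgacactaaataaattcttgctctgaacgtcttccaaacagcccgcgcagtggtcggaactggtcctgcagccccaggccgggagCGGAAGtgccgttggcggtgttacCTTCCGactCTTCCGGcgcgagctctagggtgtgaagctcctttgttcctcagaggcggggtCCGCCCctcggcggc
Zfp846: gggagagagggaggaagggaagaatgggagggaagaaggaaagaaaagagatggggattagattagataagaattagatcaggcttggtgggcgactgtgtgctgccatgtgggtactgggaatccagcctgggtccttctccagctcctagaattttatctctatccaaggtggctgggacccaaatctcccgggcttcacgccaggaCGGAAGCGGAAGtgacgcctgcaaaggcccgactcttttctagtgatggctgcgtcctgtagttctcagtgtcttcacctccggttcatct

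A RefSeq window was matched for 168 of the 200 members, and the motif shares were set beside 20595 genes of all kinds. The letters CGGAAG were present in 38.1% of member windows and in 20.0% of all windows, and the longer CCGGAAG in 24.4% and 11.0%. GC boxes were about as common in members (44.0%) as in all windows (42.7%), but were in 32.9% of KRAB-like and 55.4% of other members. Among the 72 matched members that fell with the inhibitor in DG granule-like nuclei, 41.7% held CGGAAG, against 38.8% of the 80 not called and 18.8% of the 16 that rose. In the same order GC boxes were in 41.7%, 47.5% and 37.5%, and TGACGTCA in 1.39%, 5.0% and 0.0%. The YY1 motif (4.17%, 0.0% and 18.8%) and TATAAA (6.94%, 7.5% and 18.8%) were most common among those that rose. Each 18.8% is 3 windows. In the printed windows, Zfp560 held 3 matches to CGGAAG and 2 GC boxes, Zfp846 held 2 matches to CGGAAG, and the windows of Zfp536 and Zfp941 held none of the letters searched. CGGAAG was added to the search after matches had been seen. These are letter matches, given as a description with no test. The printed windows were picked by rule from the members named below for DG granule-like nuclei. They are the 2 largest rises off chromosome 18, the deepest fall, and the next deepest fall in its run. Zfp516, on chromosome 18, was thus left out although it rose more than Zfp941. The printed windows do not stand for all members that rose or fell.

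The 6 matrices held 30323 barcodes with 24508202 to 45570814 UMIs per library, and 1 to 11 barcodes were shared by any pair of libraries. After a filter on genes and mitochondrial UMIs 27766 nuclei were kept, of which 22.1% passed no marker gate. Gated classes, called "-like" because they rest on markers alone, held 120 to 1409 nuclei per library in the 8 classes used. DG granule-like nuclei made up 16.7% to 21.7% of the kept nuclei in the CFC libraries, and in Context 16.5% for vehicle, as labelled, and 25.7% for the inhibitor. The summed class markers differed between the groups: in CPM, the usual scaling of counts to a common library total, the 7 DG granule markers summed to 3328 and 3307 CPM in the Veh-CFC and 4673 and 4788 in the HDACi-CFC libraries of that class, and none of the 7 was at 0. In the same nuclei the 8 markers of oligodendrocyte precursor (OPC) nuclei summed to 983 and 947 CPM after vehicle in CFC, with 1 of the 8 at 0 in the first of these libraries, and after the inhibitor to 1337 and 1338 CPM with none at 0. The part of these markers in the results was not tested.

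The first question was whether the Zfp family as a whole moved with the inhibitor in conditioned mice. In DG granule-like nuclei the members together made up 7744 and 8145 CPM, here UMIs scaled to the class total without TMM, in the Veh-CFC libraries and 6232 and 6299.7 in the HDACi-CFC libraries. The members with a KRAB-like match went from 2946 and 3167 to 1823 and 1885 CPM in this comparison of 2 against 2 libraries, and the other members went from 4798 and 4978 to 4409.6 and 4414. Both HDACi-CFC libraries lay below both Veh-CFC libraries for the whole family, in each of the 8 classes, and these sums carry no test. On this scale the median over all genes was also below 0 in each class. The log2 ratio of the group means was −0.34 for the members' sum in DG granule-like nuclei, beside a median of −0.36 over all genes, −0.28 beside −0.30 in OPC-like and −0.14 beside −0.37 in oligodendrocyte-like nuclei. For the sum of KRAB-like members it was −0.72 in DG granule-like nuclei and −0.58 to −0.93 over the 8 classes, beside all-gene medians of −0.37 to −0.27. For the sum of the other members it was −0.15 in DG granule-like nuclei, and in oligodendrocyte-like nuclei that sum was higher after the inhibitor, at 7319 and 7793 CPM against 7004 and 7308 CPM after vehicle. The same order was seen between the single Context libraries, with 7345 CPM in Veh-Context and 6051 in HDACi-Context.

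**Figure D1:**
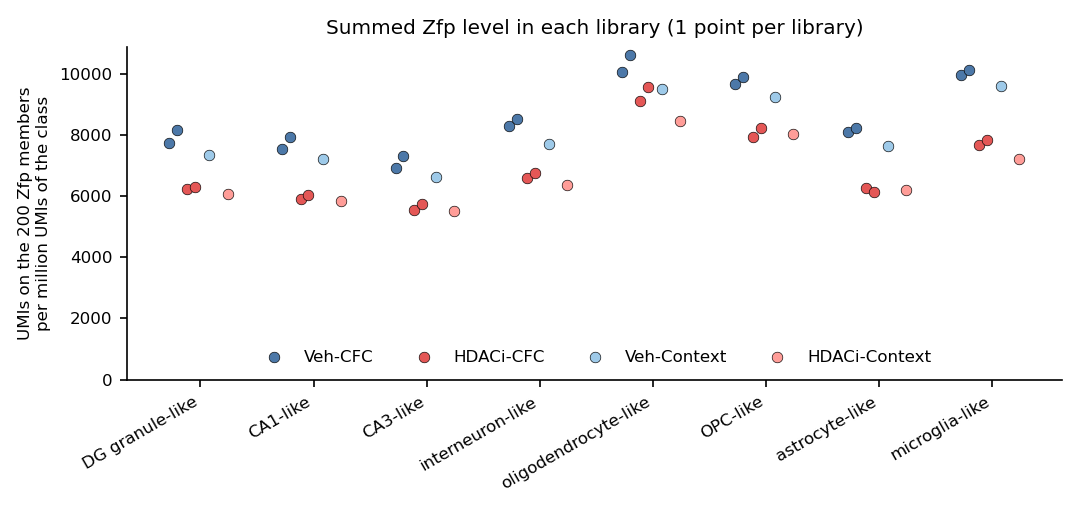
Summed level of the 200 Zfp members in CPM of the class, without TMM scaling (vertical axis) for each of the 8 marker-gated classes (horizontal axis), with 1 point per library coloured by group. In every class both HDACi-CFC points lie below both Veh-CFC points and the HDACi-Context point lies below the Veh-Context point, as in DG granule-like nuclei with 6232 and 6299.7 against 7744 and 8145. On this scale the median log2 fold change of all genes is also below 0 in each class, from −0.37 to −0.27.

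Gene by gene, more members fell than rose. In DG granule-like nuclei all 200 members passed the filter on low counts, and with edgeR's quasi-likelihood test and Benjamini-Hochberg adjustment over all genes 86 were lower and 23 higher at an adjusted p below 0.05. Of all 14606 genes tested in that class, 25.0% were called lower and 22.6% higher, against 43.0% and 11.5% of the members. The median log2 fold change was −0.30 over the members and 0.01 over all genes. Among 10353 other genes within the members' range of total UMIs 28.9% were lower and 24.5% higher, with a median of −0.02. Without the second Veh-CFC library 56 of 200 members were called lower, beside 18.1% of all genes, and 17 higher, with a median of −0.26.

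The calls depended on the scaling, and the gap between members and all genes did so less. Under the TMM scaling used above the median gene was near 0, whereas scaling by library size moved the median of all genes to −0.36 and scaling by the number of nuclei moved it to −0.47. Under library-size scaling 149 members were lower and 10 higher, beside 45.0% and 9.80% of all genes. Per nucleus 151 were lower and 4 higher, beside 46.0% and 5.42%. The members' median stood at −0.67 and −0.78 on those scales, so the gap to the median of all genes was −0.31, −0.31 and −0.30 under TMM, library-size and per-nucleus scaling.

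The shift was larger among members with a KRAB-like match. Of the 97 members with a KRAB-like match 53 were lower and 7 higher in DG granule-like nuclei, with a median of −0.47. Of the 103 members without it 33 were lower and 16 higher, with a median of −0.21. A narrower pattern, tried first and widened after this split had been seen, found 67 proteins and gave 35 lower and 7 higher, with a median of −0.47. The 133 members without it gave 51 lower and 16 higher, with a median of −0.26. Among KRAB-like members of this class the median was −0.47 inside runs (57 genes) and −0.47 outside them (40 genes). Elsewhere these medians differed, with −0.38 inside and −0.25 outside in CA1-like, −0.47 and −0.32 in CA3-like, −0.63 and −0.40 in interneuron-like, −0.66 and −0.51 in oligodendrocyte-like, −0.45 and −0.30 in OPC-like, −0.72 and −0.43 in astrocyte-like and −0.91 and −0.94 in microglia-like nuclei. No test of the difference between these groups was made.

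The split was also present among members of like level. The members were cut into 4 level bins of 50 by total UMIs, from 1527 to 2547 in the lowest and from 7845 to 67283 in the highest. From the lowest to the highest bin, 22, 28, 21 and 15 members were lower in DG granule-like nuclei, with medians of −0.47, −0.50, −0.30 and −0.05. Other genes in the same bins had medians of −0.13, −0.19, −0.11 and 0.11. Of these other genes 27.6%, 32.8%, 33.1% and 25.3% were called lower, beside 44.0%, 56.0%, 42.0% and 30.0% of the members. In the highest bin the members' share was thus near that of other genes. KRAB-like members had a lower median than the other members in each of the 4 bins of this class, with −0.21 against 0.00 in the highest. This did not hold in every class: the order was turned in the lowest bin of CA1-like nuclei (−0.47 against −0.56) and in the second bin of CA1-like (−0.31 against −0.35) and OPC-like nuclei (−0.10 against −0.18), while the remaining bins kept it. By gene span, the medians of 4 bins of 50 members lay between −0.39 and −0.23.

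**Figure D2:**
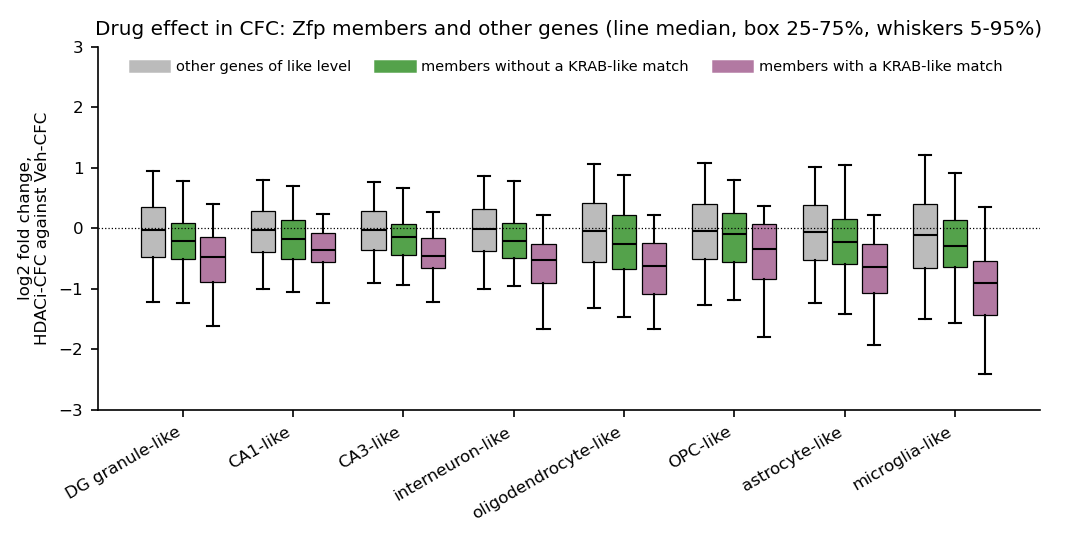
Log2 fold change of HDACi-CFC against Veh-CFC (vertical axis) in the 8 marker-gated classes for other genes of like level (grey), members without (green) and with (purple) a KRAB-like match. Lines are medians, boxes the 25th to 75th and whiskers the 5th to 95th percentiles over genes, and the purple median is the lowest in each class, at −0.47 in DG granule-like and −0.91 in microglia-like nuclei.

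Of the 8 members named for the deepest falls in DG granule-like nuclei 6 were KRAB-like. Zfp560, a KRAB zinc finger gene with 15 C2H2 patterns, stood at 23.4 and 25.3 CPM after vehicle in CFC, and 7.45 and 6.97 CPM after the inhibitor, a log2 fold change of −1.77 ± 0.19 (SE, n = 2 against 2, edgeR adjusted p = 1.28e-07). Zfp846, from the same run, went from 45.8 and 57.3 CPM to 18.3 and 15.8 CPM (−1.62 ± 0.15, edgeR adjusted p = 1.23e-08). Zfp40, from the second run of chromosome 17, went from 38.3 and 37.3 CPM to 10.2 and 12.8 CPM (−1.69 ± 0.16, edgeR adjusted p = 2.06e-08). In each of these KRAB-like genes both HDACi-CFC libraries lay below both Veh-CFC libraries, as the rule for naming them required.

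Zfp704, whose protein held 1 C2H2 pattern and no KRAB-like match, had the most UMIs of these 8. It stood at 78.5 and 76.4 CPM after vehicle in CFC, and 27.1 and 22.0 CPM after the inhibitor (−1.67 ± 0.12, edgeR adjusted p = 4.47e-10). Zfp641, also without the match, fell from 14.3 and 21.8 CPM to 6.10 and 5.07 CPM (−1.76). The remaining genes named by rule, Zfp873, Zfp868 and Zfp30, are KRAB-like and fell by 1.62, 1.55 and 1.54 on the log2 scale. Zfp90, named for its calls in several classes and below the level required for the 8, stood at 6.83 and 7.63 CPM after vehicle in CFC, and 1.13 and 0.634 CPM after the inhibitor (−3.09 ± 0.40, edgeR adjusted p = 1.99e-06), with 5 and 4 UMIs in the HDACi-CFC libraries.

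Of the 8 members named for the largest rises 6 had no KRAB-like match. Zfp536, a repressor of neuronal differentiation, stood at 146 and 142 CPM after vehicle in CFC, and 433 and 419 CPM after the inhibitor, a log2 fold change of 1.57 ± 0.07 (edgeR adjusted p = 1.14e-12, n = 2 against 2). Zfp608, with the most UMIs of all members (67283), went from 292 and 286 CPM to 598 and 614 CPM (1.07 ± 0.07, edgeR adjusted p = 4.95e-11). Its relative Zfp609 went from 179 and 197 CPM to 336 and 308 CPM (0.77). In these 3 genes both HDACi-CFC libraries lay above both Veh-CFC libraries, as the rule for naming them required.

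Zfp516, which promotes the brown fat program in adipocytes, rose from 15.5 and 12.3 CPM to 41.1 and 34.7 CPM (1.46 ± 0.16, edgeR adjusted p = 1.81e-07). Zfp365, which binds the schizophrenia-linked protein DISC1, rose by 0.85 and Zfp706, whose protein has 76 residues, by 0.78. The 2 KRAB-like genes were Zfp941, from 6.00 and 7.51 CPM to 18.1 and 11.9 CPM (1.08), and Zfp110, also called NRIF and known as a partner of the p75 neurotrophin receptor, from 8.49 and 7.99 CPM to 12.2 and 14.3 CPM (0.70), a call lost without the second Veh-CFC (0.66) or the second HDACi-CFC library (0.58). Per nucleus, Zfp536, Zfp608, Zfp516 and Zfp941 were still called higher, at 1.09, 0.59, 0.97 and 0.60. Zfp609 (0.29), Zfp365 (0.37), Zfp706 (0.30) and Zfp110 (0.22) kept their sign per nucleus but were not called.

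The 5 members with the most UMIs did not move one way. Besides Zfp608, Zfp536 and Zfp609, Zfp148, a factor that binds GC-rich promoters, stood at 205 and 198 CPM after vehicle in CFC, and 329 and 324 CPM after the inhibitor (0.70 ± 0.07, edgeR adjusted p = 8.37e-08). Its rise was not called per nucleus (0.22, edgeR adjusted p = 0.22). Zfp638, also called NP220 and linked to silencing of retroviral DNA, went from 209 and 211 CPM to 185 and 175 CPM (−0.23, edgeR adjusted p = 0.0188), a call lost without the first Veh-CFC (−0.25), second Veh-CFC (−0.21) or second HDACi-CFC library (−0.17). These 5 genes made up 16.5% of the members' UMIs.

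**Figure D3:**
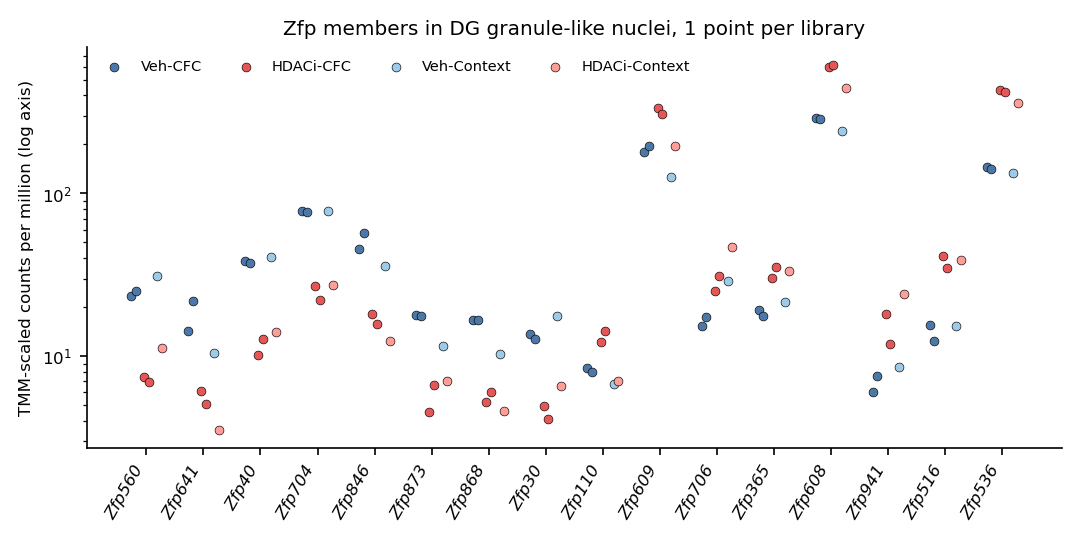
TMM-scaled CPM (vertical log axis) of the 8 lowest and 8 highest called members whose mean log2 CPM reached 3 in DG granule-like nuclei, ordered by log2 fold change in CFC, with 1 point per library coloured by group. From Zfp560 to Zfp30 both HDACi-CFC points lie below both Veh-CFC points, and from Zfp110 to Zfp536 above them. The rule that named these genes required this.

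The second question was whether the same genes moved in mice that had not been shocked. With 1 library per group there is no test, and the intervals given are 95% counting intervals that leave out differences between mice. Of the 86 members called lower in CFC in DG granule-like nuclei 84 were also below 0 in Context (97.7%, against 96.1% of all genes called lower), and all 23 called higher were above 0 (95.9% of all genes called higher). The CFC and Context comparisons share no library, and the shares of the members were close to those of all called genes. The median Context log2 ratio of the 86 was −0.53 and that of the 23 was 0.64.

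Named members are given with their single Context ratio. Zfp560 had a Context log2 ratio of −1.46 (−1.79 to −1.13), Zfp846 of −1.54 (−1.85 to −1.23) and Zfp704 of −1.52 (−1.73 to −1.31). Zfp536 had 1.44 (1.34 to 1.55), Zfp608 had 0.89 (0.81 to 0.97) and Zfp516 had 1.35 (1.05 to 1.66). Zfp110, called higher in CFC, stood at 6.79 CPM in Veh-Context and 7.05 CPM in HDACi-Context, a ratio of 0.05 (−0.48 to 0.60). Zfp873 had a Context ratio of −0.70 (−1.17 to −0.24) beside a CFC value of −1.62. The difference between CFC and Context was not tested.

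In the other classes most called members with at least 20 Context UMIs also kept their sign. Of those called lower, 62 of 65 in CA1-like (95.6% of all genes called lower), 56 of 59 in CA3-like (94.1%), 50 of 53 in interneuron-like (93.9%) and 45 of 45 in oligodendrocyte-like nuclei (95.3%) were below 0 in Context. So were 15 of 16 in OPC-like (95.4%), 28 of 31 in astrocyte-like (93.8%) and 22 of 24 in microglia-like nuclei (95.7%). Of those called higher, 17 of 17 in CA1-like (95.6%), 10 of 11 in CA3-like (94.7%), 8 of 8 in interneuron-like (95.3%) and 13 of 13 in oligodendrocyte-like nuclei (93.3%) were above 0, as were 7 of 8 in OPC-like (95.1%), 9 of 9 in astrocyte-like (94.8%) and 7 of 7 in microglia-like nuclei (95.9%). Zfp365, named for a rise in astrocyte-like nuclei, had too few Context UMIs for this count, with a Context ratio of −1.88 (−3.95 to −0.21) from 14 and 4 UMIs against a CFC value of 1.81, a call lost without the first Veh-CFC (1.54), first HDACi-CFC (1.67) or second HDACi-CFC library (2.06).

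**Figure D4:**
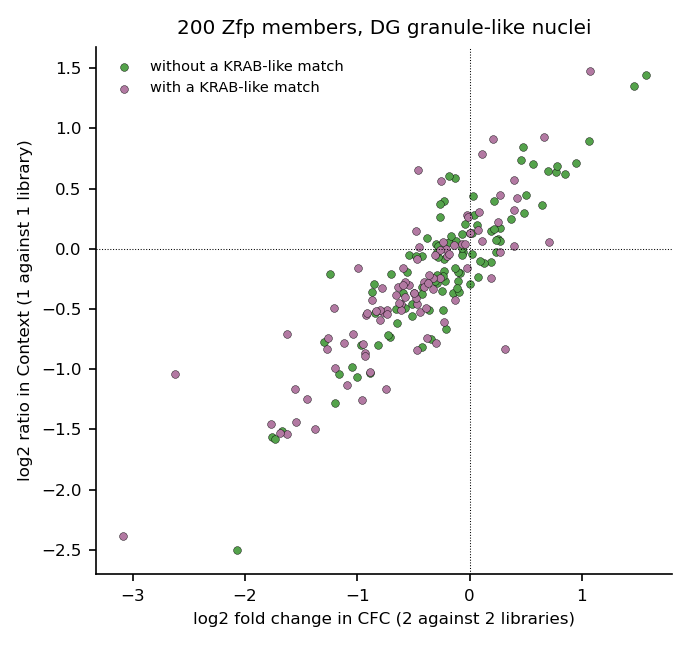
Log2 ratio of HDACi-Context against Veh-Context (vertical axis, 1 library each) and log2 fold change of HDACi-CFC against Veh-CFC (horizontal axis, 2 libraries each) for the 200 members in DG granule-like nuclei, coloured by KRAB-like match. Most points lie in the lower left quadrant, and Zfp536 lies at the upper right with 1.57 in CFC and 1.44 in Context.

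The third question was how far the pattern extended to other cell classes. In CA1-like nuclei, where all 200 members passed the filter, 65 were lower and 17 higher, beside 19.6% and 18.5% of 14320 genes. In CA3-like nuclei 59 of 198 were lower and 11 higher, beside 16.0% and 16.3% of 13679 genes, and in interneuron-like nuclei 53 of 199 and 8, beside 13.7% and 16.9% of 12680 genes. The members' medians were −0.24, −0.27 and −0.35 in these 3 neuronal classes, and the medians of all genes lay within 0.02 of 0. Other genes of like level had medians of −0.03, −0.03 and −0.02. Of these other genes 22.7% were lower in CA1-like and 18.3% in CA3-like nuclei. Leaving out the second Veh-CFC library gave 42 of 200, 29 of 199 and 35 of 200 lower members, beside 13.5%, 10.1% and 8.45% of all genes, with medians of −0.20, −0.25 and −0.32. The members' median was −0.26 in CA1-like nuclei without the first Veh-CFC library, beside −0.0006 over all genes. It was −0.31 in CA3-like nuclei without the second HDACi-CFC library, beside −0.02 over all genes.

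In glia fewer members passed the filter, and a member that passed only because it was high in one group had to differ, so the counts are given as descriptions. In oligodendrocyte-like nuclei 46 of 183 were lower and 13 higher (15.9% and 18.7% of all genes). In OPC-like nuclei 23 of 158 were lower and 8 higher (9.04% and 13.0%), in astrocyte-like nuclei 34 of 172 and 10 (11.2% and 15.3%), and in microglia-like nuclei 33 of 127 and 7 (13.9% and 17.9%). With no filter all 200 members entered, and their medians were −0.50, −0.26, −0.43 and −0.55 in that order, beside −0.01, 0.03, 0.01 and 0.07 for all genes. With the filter, other genes of like level had medians of −0.05, −0.05, −0.05 and −0.10. In OPC-like nuclei the members' medians were −0.83, −0.14, −0.15 and −0.16 from the lowest to the highest level bin. Other genes in these bins had −0.05, −0.27, −0.15 and 0.04. The second bin thus turned the order, and the third had almost no gap.

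These glial counts moved with single libraries. Without the second Veh-CFC library 9 of 183 members were lower in oligodendrocyte-like nuclei (4.12% of all genes), 7 of 153 in OPC-like (3.78%), 16 of 166 in astrocyte-like (5.29%) and 8 of 119 in microglia-like nuclei (6.21%), so in oligodendrocyte-like, OPC-like and microglia-like nuclei the members' share was close to that of all genes. At that setting 5, 4, 7 and 4 members were higher, and the members' medians were −0.29, −0.24, −0.40 and −0.50. Without the first Veh-CFC library the members' medians were −0.53 in oligodendrocyte-like, −0.21 in OPC-like and −0.43 in astrocyte-like nuclei. Without the first HDACi-CFC library they were −0.25 in OPC-like and −0.42 in astrocyte-like nuclei. Without the second HDACi-CFC library they were −0.32 in OPC-like, −0.44 in astrocyte-like and −0.63 in microglia-like nuclei. The medians of all genes beside these lay between −0.04 and 0.0002. In OPC-like nuclei the share of members called lower was close to that of all genes at each of these settings. The DG granule markers summed to 3253 and 3369 CPM in the Veh-CFC and to 4494 and 5052 CPM in the HDACi-CFC libraries of oligodendrocyte-like nuclei, and to 1372 and 1255 against 1856 and 2012 CPM in microglia-like nuclei, with 1 of the 7 at 0 in each Veh-CFC library of the last and none at 0 elsewhere. In oligodendrocyte-like nuclei these sums were close to those of DG granule-like nuclei in both CFC groups, so the summed list does not separate these classes. The gate used capped z-scores, with a median DG granule score of 0.87 in DG granule-like and −0.03 in oligodendrocyte-like nuclei. The part of the DG granule markers in the glial values was not tested.

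By the wider pattern KRAB-like members had the lower median in all 8 classes. The medians with and without the match were −0.36 and −0.17 in CA1-like, −0.46 and −0.14 in CA3-like and −0.52 and −0.21 in interneuron-like nuclei. They were −0.63 and −0.26 in oligodendrocyte-like, −0.34 and −0.09 in OPC-like, −0.65 and −0.22 in astrocyte-like and −0.91 and −0.29 in microglia-like nuclei. The narrower pattern gave a smaller split in CA1-like (−0.33 and −0.21), CA3-like (−0.42 and −0.24) and OPC-like nuclei (−0.24 and −0.14). So it did in astrocyte-like (−0.61 and −0.28) and microglia-like nuclei (−0.91 and −0.43). Its shares called lower mostly kept the order, but turned in CA1-like nuclei by library size (64.2% against 68.4%). They also turned in OPC-like nuclei per nucleus (28.0% against 29.6%). In interneuron-like, OPC-like and astrocyte-like nuclei 37, 15 and 23 KRAB-like members were called, each of them lower. The summed level of KRAB-like members in microglia-like nuclei was 3502 and 3535 CPM without TMM in the Veh-CFC libraries, against 1751 and 1943 CPM after the inhibitor.

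Across classes 8 members had calls in both directions. At least 1 class called 114 members lower and none called them higher, while 30 were higher in at least 1 class and lower in none, and 48 were never called. The share of all genes with these patterns was not computed, so these counts are description only. Lower calls in at least 6 of the 8 classes were made for 22 members, of which 18 were KRAB-like. Of the 177 members tested in at least 6 classes these are 12.4%, beside 6.25% of the 9504 genes of any kind tested in as many. Zfp560, Zfp846, Zfp40 and Zfp808, all KRAB-like, were lower in all 8, and the medians of their log2 fold changes over the classes were −1.69, −1.36, −1.12 and −1.42. They are 2.26% of those 177 members, beside 1.20% of those 9504 genes. Higher calls in at least 6 classes, which 6.54% of those 9504 genes had, were made for 6 members (3.39%), Zfp608, Zfp536, Zfp609, Zfp532, Zfp516 and Zfp219, none of them KRAB-like. Of these 6, Zfp608 alone was higher in all 8 classes, between 1.07 and 1.67. The repeated calls rested on edgeR: with DESeq2 3 members were lower in at least 6 classes (0.747% of all genes) and 2 higher (2.74%), and 0 were lower in all 8 (1 at an unadjusted p under 0.05).

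Other members lower in many classes have known roles. Zfp568, which silences a placental form of Igf2, was lower in 6 classes, between −2.28 and −0.46 over all 8. Zfp318, known for controlling IgD expression in B cells, was also lower in 6 classes. Zfp90, Zfp64, Zfp101, Zfp369 and Zfp81 were each lower in 7 classes. In microglia-like nuclei Zfp101 stood at 27.6 and 23.2 CPM after vehicle in CFC, and 0 and 1.90 CPM after the inhibitor, which is at most 1 UMI per HDACi-CFC library, so no fold is given. Zfp809, which silences retroviruses with a proline primer binding site, stood in astrocyte-like nuclei at 31.7 and 23.7 CPM after vehicle in CFC, and 1.58 and 3.59 CPM after the inhibitor, with 1 and 4 UMIs. In the same nuclei Zfp423, a regulator of neural progenitors, rose from 51.5 and 62.2 CPM to 158 and 190 CPM (1.61 ± 0.19, edgeR adjusted p = 3.21e-05), and its Context log2 ratio was 0.62 (0.13 to 1.12).

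Some effects differed between classes. The difference of the drug effect was tested as a class by drug interaction with the library as a block (edgeR, adjusted over all genes), in a joint fit whose estimate need not equal the difference of the separate log2 fold changes. Between CA1-like and DG granule-like nuclei 16 of 200 members differed (14.1% of all genes), 11 with the higher effect in CA1-like nuclei and 5 with the lower. Between oligodendrocyte-like and DG granule-like nuclei 29 of 200 differed (15.6% of all genes), 7 higher and 22 lower in oligodendrocyte-like nuclei. These are 8.0% and 14.5% of the members, under the share of all genes in both. For CA1-like nuclei the count was 9 without the second Veh-CFC, 8 without the first HDACi-CFC and 7 without the second HDACi-CFC library. For oligodendrocyte-like nuclei it was 13 and 12 without the first and second Veh-CFC and 18 and 13 without the first and second HDACi-CFC library.

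Zfp704, which fell in DG granule-like nuclei, was not called in oligodendrocyte-like nuclei. In oligodendrocyte-like nuclei it stood at 188 and 187 CPM after vehicle in CFC, and 229 and 202 CPM after the inhibitor, a log2 fold change of 0.20 (−0.16 under library-size scaling), against −1.67 in DG granule-like nuclei. The interaction was 1.73 (edgeR adjusted p = 3.08e-10). In CA1-like nuclei its effect was −0.68 and the interaction 0.92 (edgeR adjusted p = 8.05e-06). Zfp148 had a log2 fold change of 0.70 in DG granule-like and −0.16 in oligodendrocyte-like nuclei, with an interaction of −0.995 (edgeR adjusted p = 1.44e-05).

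Zfp536 had its highest Veh-CFC level of these classes in oligodendrocyte-like nuclei. Its level was 1566 and 1540 CPM in Veh-CFC oligodendrocyte-like nuclei, 554 and 521 CPM in interneuron-like, 146 and 142 CPM in DG granule-like and 8.60 and 7.94 CPM in CA1-like nuclei. HDACi-CFC libraries held 3142 and 3635 CPM in oligodendrocyte-like nuclei (1.13 ± 0.09, edgeR adjusted p = 4.45e-06) and 10.9 and 13.1 CPM in CA1-like nuclei (0.57, edgeR adjusted p = 0.0432; not called under library-size scaling, 0.22). The effect was smaller in CA1-like than in DG granule-like nuclei by an interaction of −1.05 (edgeR adjusted p = 0.000235).

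By chromosome, 95 of 103 medians of a run within a class lay below 0. Some of these medians, all in glia, rest on only 1 or 2 tested members. Most members outside runs were below 0 too. In DG granule-like nuclei 80.6% of members in runs and 70.3% outside were below 0, with medians of −0.43 and −0.25. The classes share the same libraries, so the run medians are not independent. The first run of chromosome 17 held 9 KRAB-like members over 1.35 Mb, of which 7 were called in DG granule-like nuclei, each lower, with a median of −0.58. Zfp760, named after its values were seen, was its lowest member there, from 10.8 and 8.23 CPM to 0.903 and 1.90 CPM, and Zfp943 its highest (−0.02). Zfp160, its member with the most UMIs, went from 45.5 and 61.4 CPM to 29.1 and 32.9 CPM (−0.80). The fourth run of chromosome 7, with 10 members, had 5 lower and 1 higher, from Zfp30 (−1.54) to Zfp260 (0.56, and 0.08 per nucleus, where it was not called). In that class 43.0% of all members were lower and 11.5% higher, beside 25.0% and 22.6% of all genes. The counts of the fourth run of chromosome 7 were thus close to the shares of all members.

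The second run of chromosome 17 held 3 members. Its median in DG granule-like nuclei was 0.24 under TMM scaling, with Zfp40 at −1.69 and Zfp945 at 0.32 (−0.05 under library-size scaling). The first run of chromosome 9 held Zfp560 and Zfp846 beside Zfp266 (97.3 and 102 CPM against 84.4 and 88.5 CPM, −0.21, edgeR adjusted p = 0.0651), which has more UMIs than any other member of the run and was not called. Members of a run share position and sequence and are not replicates of each other.

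**Figure D5:**
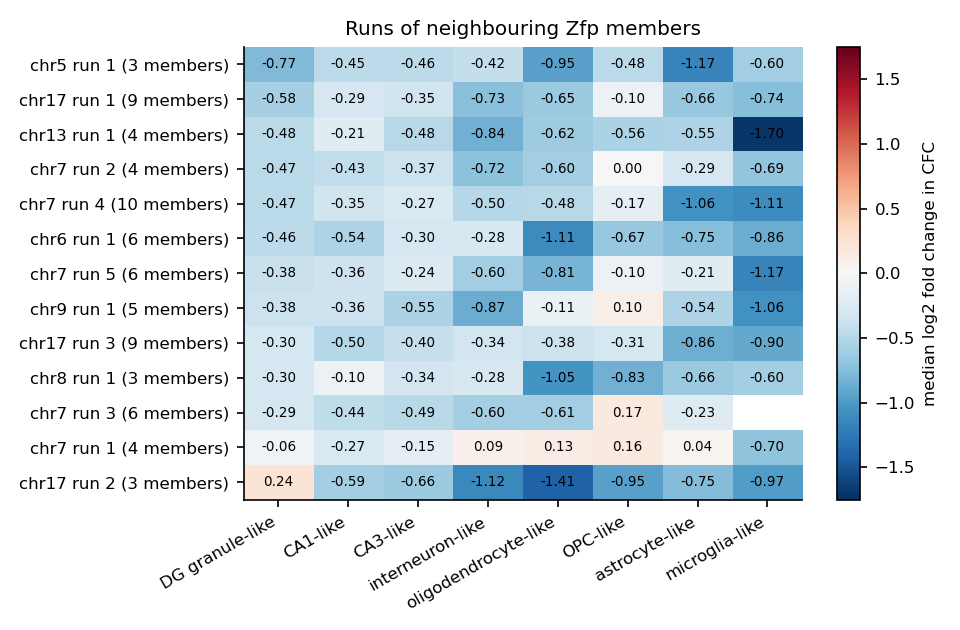
Median log2 fold change of HDACi-CFC against Veh-CFC over the tested members of each run of neighbouring Zfp genes (rows, with the number of members) in each class (columns), where blue is lower and red higher and a blank cell had no tested member. The number beside a run counts all its members, tested or not, and some glial medians rest on 1 or 2 tested members. All but 8 of the 103 medians are below 0, and the second run of chromosome 17 is at 0.24 in DG granule-like nuclei. Of the members outside runs 70.3% were also below 0 in that class.

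The partners through which KRAB proteins act were called in both directions in DG granule-like nuclei. Of the 29 genes of the KRAB corepressor list 28 were tested, 12 were lower and 8 higher, with a median of −0.16 (25.0% and 22.6% of all genes). Under library-size scaling 16 were lower and 4 higher, and per nucleus 16 and 1. Of the genes named by rule, Dnmt1, the maintenance DNA methyltransferase, went from 11.0 and 9.81 CPM to 2.71 and 2.06 CPM (−2.13 ± 0.29). Trim24, a relative of TRIM28, went from 39.96 and 49.997 CPM to 16.5 and 15.7 CPM (−1.51), and Mbd3, a subunit of the NuRD deacetylase complex, from 24.02 and 28.7 CPM to 11.5 and 11.2 CPM (−1.23). Dnmt3b was called lower, with 2.69 and 3.63 CPM after vehicle in CFC, and 0 and 0.634 CPM after the inhibitor, too few UMIs for a fold.

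Hdac1, a class I deacetylase and so of the class the drug inhibits, rose from 65.6 and 64.3 CPM to 149 and 131 CPM (1.11 ± 0.09), Atf7ip, a SETDB1 cofactor, from 79.3 and 86.0 CPM to 141 and 144 CPM (0.78), Dnmt3a from 210 and 198 CPM to 358 and 298 CPM (0.68) and Mta3 from 75.2 and 70.8 CPM to 120 and 110 CPM (0.66). Another pair outside the rule was named after their values were seen, because TRIM28 and SETDB1 are the core of the complex: Trim28 went from 29.8 and 26.1 CPM to 21.5 and 17.9 CPM (−0.51), and Setdb1 from 103 and 95.8 CPM to 49.5 and 44.2 CPM (−1.09). Per nucleus Hdac1 stood at 0.62 and Setdb1 at −1.57.

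Other zinc finger families were set beside the members in DG granule-like nuclei as a description. Of all genes tested in that class 25.0% were lower and 22.6% higher, and the Zbtb counts below are near those shares. Of 32 tested Zbtb genes, which carry a BTB domain, 9 were lower and 9 higher, with a median of −0.13. Of 19 tested Zkscan and Zscan genes 4 were lower and 1 higher (median −0.07), of 14 Zc3h genes 5 and 3 (−0.20), and of 11 Zmym and Zmynd genes 2 and 3 (0.12). The Zfp and related symbols outside the members that passed the filter, 107 of 203, had 40 called lower and 5 higher, with a median of −0.69. These symbols have low counts, and one that passed only because it was high in one group had to differ. Their counts and median are therefore description only. Library-size scaling moved these medians to −0.50, −0.44, −0.57, −0.25 and −1.06, so the sign for Zmym and Zmynd depended on it.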

How the data were processed

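Single nuclei of the hippocampus were profiled in 6 droplet libraries, 4 of CFC and 2 of Context. The authors deposited 1 matrix of raw UMI counts per library. Cell Ranger 3.0.1 (CFC) and 3.0.2 (Context) wrote them, per the file headers, and build mm10 is given per the submitters' processing notes; whether intronic reads were counted is not given in the sources used here.

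Nuclei were kept from 500 genes upward and with no more than 5% of UMIs mitochondrial, and were assigned to a class by marker scores (capped z-scores of log-scaled counts, score and margin of at least 0.3, at least 2 markers detected), with no doublet caller. The score cut-offs were set against an exploratory clustering. Counts were summed per class and library and tested with edgeR 4.0.16 (filterByExpr, TMM scaling, quasi-likelihood test, Benjamini-Hochberg adjustment over all genes, called under 0.05), after the fit had been tested on simulated data. Library sizes ranged from 24508202 to 45570814 UMIs. The replicate is a pool of 5 mice, and nothing else in the labels separates replicates, so p-values measure the spread between these libraries. Context ratios carry Clopper-Pearson counting intervals, which cover counting error only. KRAB-like and C2H2 patterns were searched in translated GENCODE M21 coding sequences, with 30934 of 31053 IDs matched.

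The members and lists were chosen with earlier results of these data known. Named were the 5 members with the most UMIs; among called members whose mean log2 CPM reached 3 and whose CFC groups did not overlap, the 8 lowest and 8 highest in DG granule-like nuclei and the 3 lowest and 3 highest in each other class; members called one way in at least 6 classes; the member with the most UMIs of each run of 4 or more; and the 4 lowest and 4 highest called genes of the partner list. Alternatives were DESeq2 1.42.0, other scalings, gates and filters, a replicate block and leaving out each library.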

Additional observations from a re-analysis of the deposited data

Results flagged for a closer look

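The drug effect in CFC differed between cell classes for 18 pairings of a named member and a class, by the class by drug interaction test (edgeR, adjusted over all genes, 2 Veh-CFC and 2 HDACi-CFC libraries). Over all 200 members 8.0% differed in CA1-like and 14.5% in oligodendrocyte-like nuclei, beside 14.1% and 15.6% of all genes. Such differences are therefore not particular to Zfp genes. Many of these members were named because they were extreme in DG granule-like nuclei, so a smaller effect in the other class is partly built into the choice. Values are differences on the log2 scale, the other class minus DG granule-like, estimated in a joint fit.

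In CA1-like nuclei the effect was lower for Zfp536 by −1.05 (adjusted p = 0.000235), for Zfp148 by −0.50 (adjusted p = 5.69e-05) and for Zfp941 by −0.89 (adjusted p = 0.0405), all of which rose in DG granule-like nuclei. It was higher for members that fell there: Zfp90 by 1.88 (adjusted p = 0.00834), Zfp40 by 1.02 (adjusted p = 0.000152), Zfp704 by 0.92 (adjusted p = 8.05e-06), Zfp30 by 0.85 (adjusted p = 0.0453), Zfp2 by 0.71 (adjusted p = 0.0255) and Zfp318 by 0.67 (adjusted p = 0.0164).

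In oligodendrocyte-like nuclei the effect was higher for Zfp704 by 1.73 (adjusted p = 3.08e-10) and for Zfp608 by 0.46 (adjusted p = 0.0266). It was lower for Zfp148 by −0.995 (adjusted p = 1.44e-05), Zfp536 by −0.58 (adjusted p = 0.00223), Zfp260 by −0.84 (adjusted p = 0.000684) and Zfp110 by −0.89 (adjusted p = 0.0156). Members that fell in both classes and further in oligodendrocyte-like nuclei were Zfp398 by −1.08 (adjusted p = 0.0012), Zfp141 by −1.02 (adjusted p = 0.00868) and Zfp961 by −1.02 (adjusted p = 0.0202).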

How the results depend on the processing

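Counts of called members depended on scaling, tool and library, while the gap between the members' median and that of all genes stayed below 0 in each of the 13 settings of each class (DG granule-like −0.38 to −0.26, microglia-like −0.62 to −0.46). By the wider pattern, the median of KRAB-like members was below that of the others in 13 of 13 settings in each of the 8 classes. In the order DG granule, CA1, CA3, interneuron, oligodendrocyte, OPC, astrocyte and microglia-like, library-size scaling called 10, 6, 5, 5, 5, 4, 6 and 3 members higher and 149, 134, 108, 124, 100, 39, 65 and 50 lower. On that scale 45.0%, 42.6%, 32.2%, 34.3%, 32.4%, 21.2%, 23.4% and 23.6% of all genes were lower. Per nucleus 4, 2, 2, 1, 3, 4, 3 and 2 members were higher and 151, 105, 78, 89, 112, 46, 63 and 56 lower. Of all genes 46.0%, 31.5%, 21.2%, 22.4%, 38.2%, 24.6%, 20.9% and 24.2% were lower per nucleus. DESeq2 called 13, 10, 7, 5, 5, 4, 3 and 3 members higher and 53, 30, 15, 19, 9, 0, 5 and 2 lower. By DESeq2 14.6%, 9.23%, 6.32%, 3.79%, 4.23%, 1.19%, 1.81% and 1.9% of all genes were lower. In OPC-like nuclei DESeq2 had 10 members lower at an unadjusted p under 0.05, and edgeR called 23. The cause of these changes was not tested. Without a filter, with the looser gate (added after seeing the data) and without the top 5% of nuclei every count was within 1.5 times, and with the stricter gate too, except 16 members in the oligodendrocyte interaction, which was 19 under library-size scaling.

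The replicate numbers of the labels name no shared animal or batch, and the deviations of same-numbered libraries correlated at 0.0302 to 0.116. With a replicate block, 23, 18, 14, 11, 13, 8, 10 and 8 members were higher and 91, 69, 73, 58, 54, 20, 41 and 36 lower in the same class order, each within 1.5 times of the count without the pairing. Of all genes 26.1%, 21.6%, 19.6%, 14.9%, 17.8%, 8.19%, 13.8% and 15.7% were lower with the block.

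Leaving out 1 library gave 17 to 23, 10 to 17, 8 to 13, 6 to 10, 5 to 12, 4 to 8, 6 to 8 and 4 to 9 higher members, and 56 to 81, 42 to 59, 29 to 50, 35 to 47, 9 to 45, 7 to 11, 16 to 26 and 8 to 24 lower. The interaction counts were 7 to 15 for CA1-like and 12 to 18 for oligodendrocyte-like nuclei. Where 1 library was left in a group, it was assumed to vary like the other group. Zfp799 changed sign per nucleus (−0.0817), and Zfp444, not called, lay between −0.349 and 0.114 as libraries were left out, with 0.0189 without the second Veh-CFC and 0.114 without the second HDACi-CFC library. Depth limited microglia-like and OPC-like nuclei most, with 127 and 158 members passing the filter.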
